A study of Mus musculus with 30 samples.

Results

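The genes described here are the 8 sarcomeric myosin heavy chain genes Myh1, Myh2, Myh3, Myh4, Myh6, Myh7, Myh7b and Myh8 and the antisense RNA Myhas, 9 of the 56980 genes in a table of RNA sequencing counts from mouse soleus. They were taken by symbol, each matched 1 row of the table through its Ensembl identifier, and all 9 were among the 16932 genes that passed the filter on low counts. In the order above the identifiers are ENSMUSG00000056328, ENSMUSG00000033196, ENSMUSG00000020908, ENSMUSG00000057003, ENSMUSG00000040752, ENSMUSG00000053093, ENSMUSG00000074652 and ENSMUSG00000055775, and ENSMUSG00000085348 for Myhas. Soleus, a muscle of the calf that works in standing, came from 30 C57BL/6J mice of both sexes aged 3 to 4 months, each mouse a separate library.

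There were 4 groups. Unloaded mKO mice (HU mKO, n = 8) and unloaded controls (HU Ctrl, n = 7) spent 4 weeks under hindlimb unloading, in which the hindlimbs are lifted off the ground. Ambulatory mKO mice (AMB mKO, n = 7) and ambulatory controls (AMB Ctrl, n = 8) walked freely for those 4 weeks. HU mKO held 3 males and 5 females, and HU Ctrl 4 males and 3 females. AMB mKO held 5 males and 2 females, and AMB Ctrl 3 males and 5 females. The mKO mice lacked the catalytic α1 and α2 subunits of AMP-activated protein kinase (AMPK), an energy sensor, in skeletal muscle. The controls carried the floxed genes without Cre. The 2 genotypes therefore differ in AMPK and in Cre together, whose parts cannot be told apart, and the labels do not name the promoter that drives Cre. The comparisons ask what unloading and what loss of muscle AMPK do to the myosin transcripts.

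Myosin heavy chains form the thick filament of the sarcomere, and the chain a fibre makes sets how fast it shortens and how much ATP it uses. Myh7 encodes the slow type 1 chain, Myh2 the fast 2A chain, Myh1 the faster 2X chain and Myh4 the fastest, 2B chain. The mouse soleus is known as a muscle of mostly slow and 2A fibres, and unloading is known to move postural muscles towards faster myosins. Myh3 and Myh8 encode the embryonic and perinatal chains, Myh6 the α chain of heart muscle, a close relative of Myh7, and Myh7b an ancient relative of slow and heart muscle. Myhas is a long noncoding RNA transcribed from between Myh1 and Myh4 on the opposite strand.

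In the RefSeq annotation of mouse build GRCm38.p6, the fast and developmental genes lie side by side on chromosome 11 in the order Myh3, Myh2, Myh1, Myhas, Myh4 and Myh8. Myh6 and Myh7 neighbour each other on chromosome 14, and Myh7b is alone on chromosome 2. Myhas and Myh4 start 531 bases apart and are read away from each other, and Myhas overlaps Myh1 by 382 bases. The 250 bases before the start of the 3 adult fast genes and of Myhas are shown because Myh2, Myh1 and Myhas changed with unloading and Myh4 had the widest range between mice. The sequences are RefSeq's, 5′ to 3′ on the strand of each gene, and capitals mark a run of 20 bases that Myh2, Myh1 and Myh4 share.
Myh2, GRCm38.p6 chr11:67170777-67171026, plus strand: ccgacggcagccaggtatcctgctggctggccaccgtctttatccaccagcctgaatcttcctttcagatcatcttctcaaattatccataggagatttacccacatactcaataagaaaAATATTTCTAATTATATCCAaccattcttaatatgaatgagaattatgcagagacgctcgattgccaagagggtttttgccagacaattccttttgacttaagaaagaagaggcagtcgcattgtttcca
Myh1, GRCm38.p6 chr11:67199852-67200101, plus strand: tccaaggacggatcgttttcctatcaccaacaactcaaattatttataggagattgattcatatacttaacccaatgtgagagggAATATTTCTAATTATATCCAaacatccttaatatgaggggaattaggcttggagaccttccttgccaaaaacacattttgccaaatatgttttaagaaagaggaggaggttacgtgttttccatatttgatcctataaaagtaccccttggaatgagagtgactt
Myh4, GRCm38.p6 chr11:67237562-67237811, plus strand: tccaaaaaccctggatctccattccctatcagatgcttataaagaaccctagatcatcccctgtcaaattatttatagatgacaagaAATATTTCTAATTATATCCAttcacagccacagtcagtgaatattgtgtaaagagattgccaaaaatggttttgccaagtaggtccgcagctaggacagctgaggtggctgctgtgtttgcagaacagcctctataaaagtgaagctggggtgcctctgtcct
Myhas, GRCm38.p6 chr11:67237282-67237531, minus strand: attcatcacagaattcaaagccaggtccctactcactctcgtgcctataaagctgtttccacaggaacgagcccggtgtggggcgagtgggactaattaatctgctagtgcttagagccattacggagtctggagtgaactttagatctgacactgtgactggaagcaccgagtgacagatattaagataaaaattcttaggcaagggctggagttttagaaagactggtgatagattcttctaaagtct

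Counted from the start of the gene, the run of 20 bases begins at position -130 in Myh2, -165 in Myh1 and -163 in Myh4. It was found, on either strand, in 3 of 32851 RefSeq promoters, 0.00913%, which are these 3. A core of 14 bases of it was also found at position -54 in Myh8, and in 4 promoters in all (0.0122%). The letters CANNTG, the E-box, were in the windows of Myh3, Myh4, Myh6, Myh7, Myh7b and Myh8 and in 66.2% of all promoters, and the form CAGCTG, which the E-box contains, was in that of Myh4 among the members and in 13.0% of all promoters. The letters TATAAAA were in the windows of Myh1, Myh3 and Myh4 and in 4.98% of all promoters. The MEF2 element was matched before Myh1, Myh4 and Myh8 and in 2.92% of promoters, and the CArG box before Myh4 and in 1.47%. TCAGGTT, the MEF3 element, was in no member's window and in 3.49% of promoters. All motifs were searched on both strands, and a match is a description of letters, not a binding site.

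Each of Myh7, Myh6 and Myh7b also hosts a microRNA, and these 3 are shown because their seeds are nearly alike, with the seed (bases 2 to 8) in capitals.
mmu-miR-208b-3p, inside Myh7, GRCm38.p6 chr14:54975710-54975731, minus strand: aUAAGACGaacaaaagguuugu
mmu-miR-208a-3p, inside Myh6, GRCm38.p6 chr14:54949072-54949093, minus strand: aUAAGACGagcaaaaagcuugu
mmu-miR-499-5p, inside Myh7b, GRCm38.p6 chr2:155622893-155622913, plus strand: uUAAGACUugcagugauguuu
The miRNAs of Myh7 and Myh6 share the seed UAAGACG, and that of Myh7b has UAAGACU. Levels of mature miRNAs are not analysed here.

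The 8 coding sequences run from 5808 bases in Myh7 to 5829 in Myh1 and Myh2, so counts of different myosins can be compared with little effect of length. Myh6 and Myh7 share 91.6% of aligned coding bases, Myh1 and Myh2 91.1%, and Myh1 and Myh4 90.2%, whereas Myh7b shares 69.4% to 72.3% with the others. Of all windows of 150 bases in the transcript, 5.43% of those in Myh7 and 5.53% of those in Myh6 occur unchanged in another myosin, 2.49% in Myh1, 2.06% in Myh2, 0.511% in Myh4 and 0% in Myh7b. For windows of 50 bases it was 26.9% in Myh2, 26.7% in Myh1, 22.6% in Myh6, 22.2% in Myh7, 21.4% in Myh8, 18.9% in Myh4 and 0% in Myh7b. The labels do not tell how reads from such stretches were counted. Small amounts of a myosin beside a very abundant near-copy are therefore uncertain, as for Myh6, for Myh8 and for Myh4 where it is low. The labels do not give the strand setting of the counting either, so counts of Myhas may include reads of Myh1 where they overlap.

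Total counts per library were 12083415 to 17510056 in HU mKO, 13912163 to 18114930 in HU Ctrl, 12958437 to 18518415 in AMB mKO and 15269039 to 20895263 in AMB Ctrl, and the 9 members took a median of 2.91% of them. The transcript of AMPKα2, Prkaa2, had 56.0 to 111.6 CPM (counts scaled to a common library size, normalised by TMM) in HU mKO against 129.9 to 345.5 in HU Ctrl, and 15.0 to 85.2 in AMB mKO against 169.8 to 257.9 in AMB Ctrl, and it fell in both genotype comparisons (edgeR, adjusted p = 0.00192 in unloaded and 0.000367 in ambulatory mice). Prkaa1, the α1 transcript, was not called in either, at 13.4 to 24.3 CPM in HU mKO against 22.4 to 30.35 in HU Ctrl, and 8.21 to 36.2 in AMB mKO, the highest being replicate 2, against 16.5 to 24.9 in AMB Ctrl. The library of AMB mKO replicate 2 stood apart: the 10 striated muscle fibre markers summed to 10069 CPM there, against group medians of 198599 in HU mKO, 205837 in HU Ctrl, 245394 in AMB mKO and 243092 in AMB Ctrl, and the 8 adipocyte markers summed to 11539 CPM, against 808.7 to 3591 in every other mouse. The 7 tested Schwann cell markers summed to 1129 CPM in it. They were also high in HU mKO replicates 2 and 3 (592.4 and 1344 CPM), HU Ctrl replicate 7 (582.1) and AMB Ctrl replicates 1 and 3 (307.4 and 413.7). Group medians of that sum were 37.25 CPM in HU mKO, 28.46 in HU Ctrl, 17.15 in AMB mKO and 29.31 in AMB Ctrl. AMB mKO replicate 2 was kept in all main values, which are also given without it where it matters, but left out of all relations between transcripts within AMB mKO. Of 6 heart muscle markers, 5 were too low to be tested and Nppa was at 0 in every library. Tnnt2, the one tested, which immature skeletal fibres also make, rose with unloading (adjusted p = 0.00349 in mKO mice and 0.00713 in controls).

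Myh7, Myh2, Myh1 and Myh4 together held 98.3% to 99.8% of the counts summed over the 8 myosins in every mouse. The largest shares were of Myh1 in unloaded mice and of Myh7 and Myh2 in ambulatory ones. Per base of coding length, Myh1 was the most abundant myosin transcript in 6 of 8 HU mKO and 7 of 7 HU Ctrl mice. In HU mKO, replicate 2 had Myh4 and replicate 3 had Myh7 on top. In AMB mKO, Myh7 led in 3 of 7 mice, Myh2 in 2, Myh1 in 1 and, in replicate 2, Myh4 in 1. In AMB Ctrl, Myh7 led in 4 of 8 mice and Myh2 in 4.

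**Figure D1:**
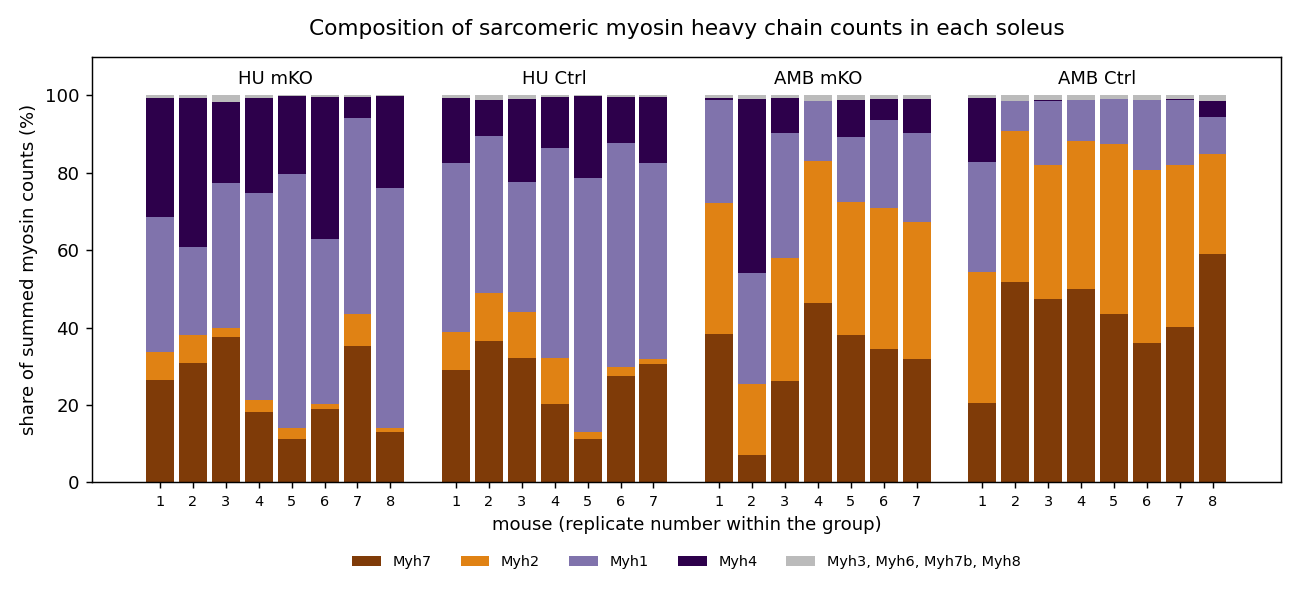
Share of each myosin gene (percent of the counts summed over the 8 myosin heavy chain genes, y axis) in each of the 30 mice (x axis), by group. Myh1 takes 22.8% to 65.7% in unloaded mice, Myh2 18.3% to 44.8% in ambulatory mice, and Myh4 is near 0 in 6 of 8 AMB Ctrl mice.

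In controls, Myh1 and Myhas rose and Myh2 and Myh3 fell with unloading. In HU Ctrl against AMB Ctrl, edgeR's quasi-likelihood test, with p-values adjusted over all 16932 genes by the method of Benjamini and Hochberg, called 4 of the 9 members at 0.05. Of all genes tested 11.1% were called. There were 2 members that rose, against 5.37% of all genes, and 2 that fell, against 5.74%, and the median log2 fold change was -0.60 over the 9 members and 0.03 over all genes. Unloading in mKO mice gave the same 4 calls in the same directions, HU mKO against AMB mKO, where 10.1% of all genes were called, 5.3% higher and 4.75% lower. The median there was 0.07 over the 9 members and -0.04 over all genes. In HU mKO against AMB mKO, fitted values were lower for 8 of 8 adipocyte markers (median -1.60), 8 of 8 tenocyte markers (-0.90, with 1 called) and 6 of 6 macrophage markers (-0.51), and in HU Ctrl against AMB Ctrl for 8 of 8 adipocyte (-0.39), 5 of 8 tenocyte (-0.39, with 1 called) and 1 of 6 macrophage markers (0.20). The AMB mKO values include replicate 2, whose adipocyte markers summed to 11539 CPM. Group medians of that sum were 1371 CPM in HU mKO and 1803 in AMB mKO. The part of these markers in the values of the members was not tested. Fold changes are from the fitted model, which holds a term for sex. In these bulk samples, fewer fibres of a type and less RNA per fibre cannot be told apart.

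**Figure D2:**
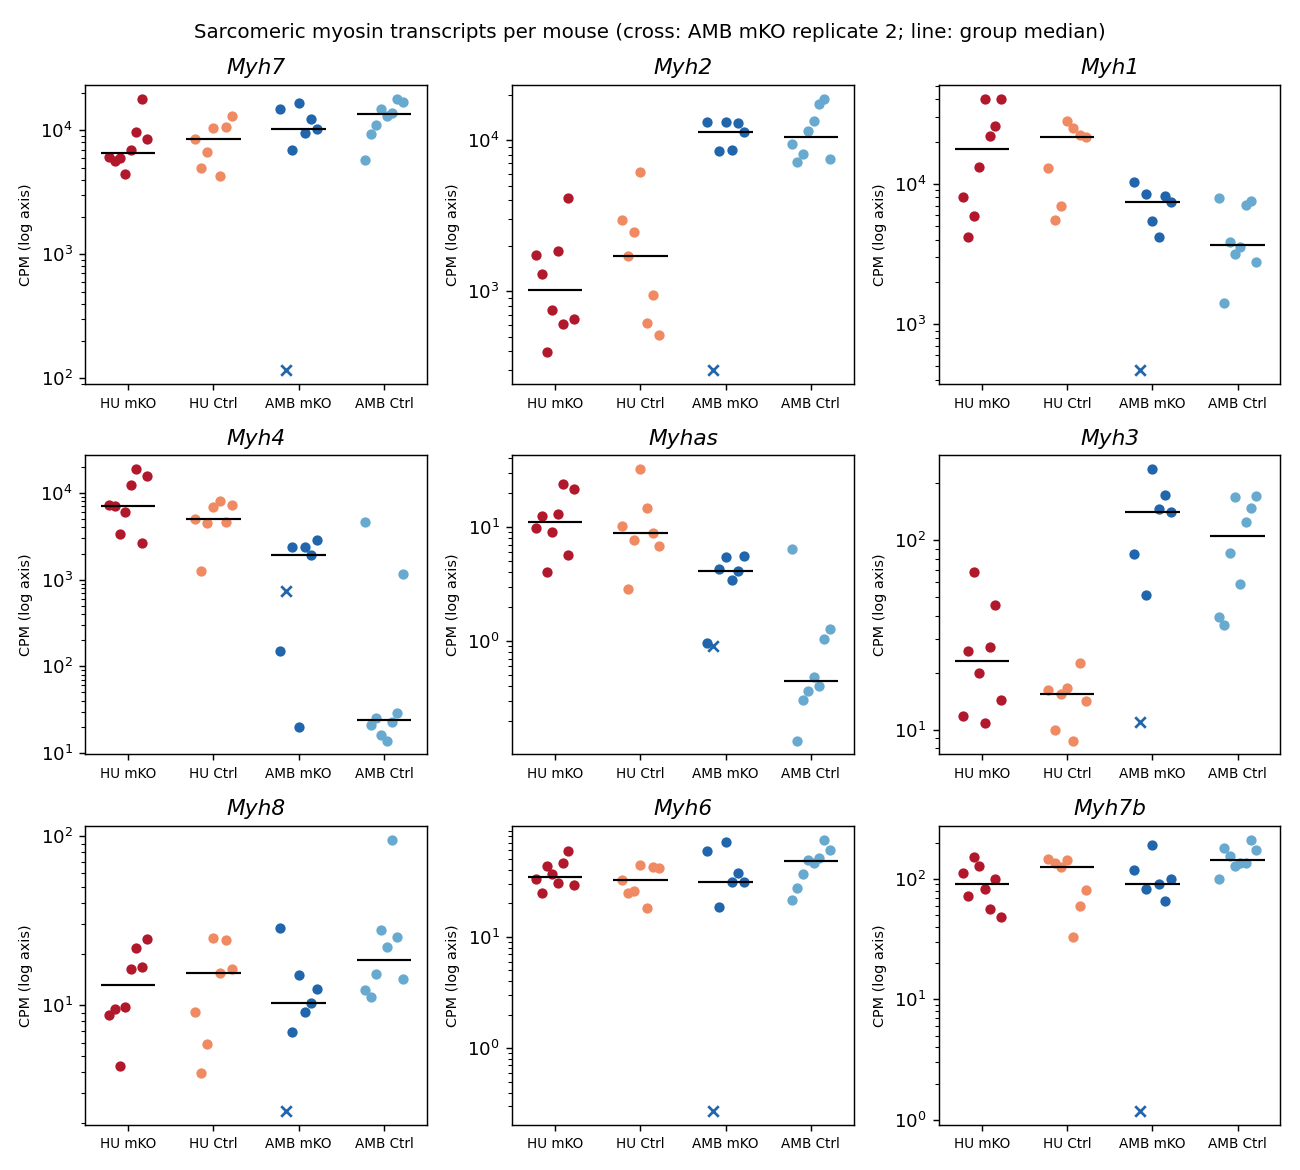
Normalised CPM (log axis) of each member in every mouse, by group; the line is the group median and the cross is AMB mKO replicate 2. Myh2 and Myh3 lie lower in HU Ctrl than in AMB Ctrl without overlap, and Myh4 splits the AMB Ctrl mice into 6 between 13.8 and 28.6 CPM and 2 at 1147 and 4658 CPM.

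Myh2, the 2A chain, had 515, 1702 and 6195 CPM (lowest, median and highest) in HU Ctrl, against 7144, 10516 and 18846 in AMB Ctrl. Every HU Ctrl mouse lay below every AMB Ctrl mouse, as was the case for 3.56% of all genes tested in either direction, and Myh2 fell 6.24-fold (log2 -2.64 ± 0.60 SE, adjusted p = 0.00486). In the mKO mice it had 398, 1024 and 4152 CPM under unloading, against 299, 11361 and 13123 in AMB mKO, where the 299 was replicate 2 and the next lowest mouse had 8406. The ranges were apart once that library was left out. With it no member had ranges apart in this comparison, where 1.51% of all genes did, and Myh2 fell 5.58-fold (log2 -2.48 ± 0.59 SE, adjusted p = 0.00829), a call that was lost in a fit of those 2 groups alone (0.0509). HU mKO replicate 7 and HU Ctrl replicate 4 stood well above the other unloaded mice of their groups.

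Myh1, the 2X chain, moved the other way. It had 5523, 21480 and 27962 CPM in HU Ctrl, against 1413, 3688 and 7925 in AMB Ctrl, and rose 3.68-fold (log2 1.88 ± 0.53 SE, adjusted p = 0.0214). The ranges overlapped, since the lowest unloaded mice, replicates 2 and 3, had values within the range of AMB Ctrl. In HU mKO it had 4151, 17568 and 40525 CPM, against 469, 7437 and 10326 in AMB mKO, and rose 3.45-fold (log2 1.78 ± 0.56 SE, adjusted p = 0.0403). This call in mKO mice did not hold with no filter on low counts (adjusted p = 0.0778), in a fit of those 2 groups alone (0.148) or without AMB Ctrl replicates 1 and 8 (0.0567).

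The low unloaded mice were those whose sample titles end in the letter c. The titles end in a, b or c, all groups hold all 3 letters, and the labels do not say what they stand for. All 6 unloaded c mice had 4151 to 12879 CPM of Myh1, and all 9 unloaded a and b mice had 13176 to 40525. Among c mice, Myh1 averaged 6067 CPM in HU mKO (n = 3), with a range of 4151 to 8105, against 469 and 8469 CPM in AMB mKO, and 8466 CPM in HU Ctrl (n = 3) against 4396 CPM in AMB Ctrl (n = 3). Among a mice the averages were 26850 in HU mKO (n = 2, 13176 and 40525 CPM) against 4822 in AMB mKO (n = 2). In controls they were 26559 in HU Ctrl (n = 2) against 4565 in AMB Ctrl (n = 3). Among b mice the averages were 29428 in HU mKO (n = 3) against 8639 in AMB mKO (n = 3). For b controls they were 21966 in HU Ctrl (n = 2) against 5174 in AMB Ctrl (n = 2). All unloaded a mice were male and all unloaded b mice female, so there letters a and b cannot be told apart from sex. Among c mice the HU mKO values lay inside the range of AMB mKO, whose low value is replicate 2, and the range of HU Ctrl, 5523 to 12879 CPM, overlapped that of AMB Ctrl, 1413 to 7925 CPM. With the letter as a covariate Myh1 rose in both genotypes (log2 1.86 ± 0.47, adjusted p = 0.00888 in mKO mice; 1.54 ± 0.45, adjusted p = 0.0217 in controls). The striated fibre markers summed to 93797 to 184211 CPM in the 6 unloaded c mice, and to 147623 to 327011 in the other unloaded mice; their part in the result was not tested.

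**Figure D3:**
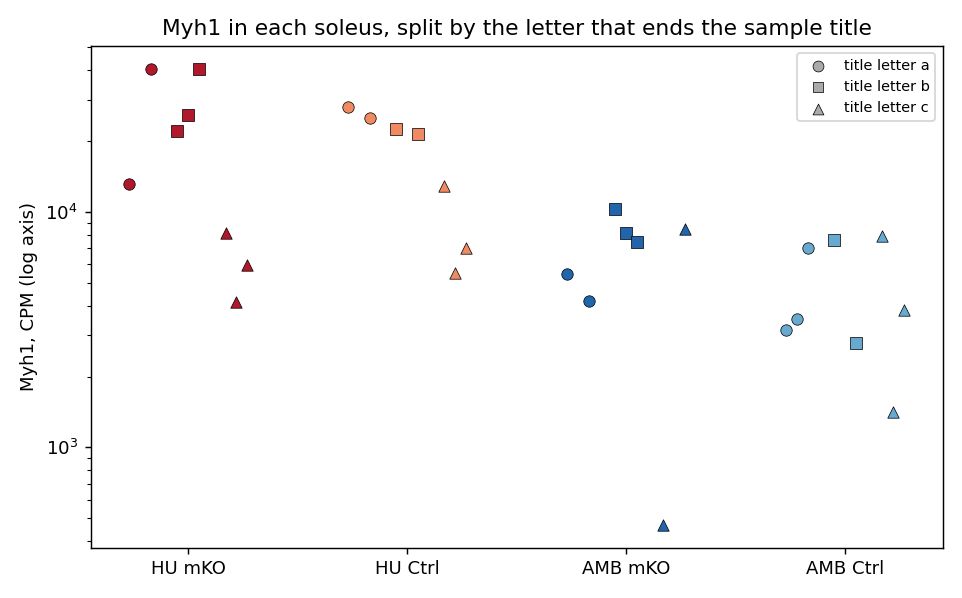
Normalised CPM of Myh1 (log axis) in every mouse, by group and by the letter that ends the sample title (marker shape). The 6 unloaded mice with letter c, at 4151 to 12879 CPM, all lie below the 9 unloaded mice with letter a or b.

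Myh4, the 2B chain, spanned 13.8 to 18886 CPM over the 30 mice. It had 1257, 4956 and 8125 CPM in HU Ctrl, and 13.8, 23.9 and 4658 in AMB Ctrl. In AMB Ctrl, 6 mice had 13.8 to 28.6 CPM, replicate 8 had 1147 and replicate 1 had 4658, so the ranges overlapped through those 2 mice. The fitted difference was log2 3.06 ± 1.06 SE with adjusted p = 0.0588, which did not pass, while DESeq2 (adjusted p = 0.0142), limma voom with library weights (log2 6.23, adjusted p = 0.000639) and the letter as covariate (adjusted p = 0.0215) called a rise. Without AMB Ctrl replicate 1 it was log2 4.88 and without replicates 1 and 8 log2 7.81, but these mice were chosen for their Myh4, so the values describe how far the estimate rests on them.

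In mKO mice Myh4 had 2676, 7087 and 18886 CPM under unloading, against 19.7, 1934 and 2861 in AMB mKO. The ranges overlapped only between the lowest unloaded mouse, replicate 7, and the highest ambulatory mouse, replicate 7. The difference of log2 3.40 ± 1.19 SE did not pass in edgeR (adjusted p = 0.0644) or limma voom (log2 3.12, adjusted p = 0.201), and passed with DESeq2 (0.00751) and with the letter as covariate (0.0259). The standard errors of Myh4 were 1.01 to 1.19 on the log2 scale in the 4 comparisons, so that a several-fold difference can miss the threshold in this design.

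Myhas, the antisense RNA beside Myh4, was scarce and rose with unloading in both genotypes. It had 2.86, 8.85 and 32.3 CPM in HU Ctrl, against 0.134, 0.444 and 6.42 in AMB Ctrl, and rose 8.56-fold (log2 3.10 ± 0.55 SE, adjusted p = 0.000624). The highest AMB Ctrl mouse was replicate 1, also the highest in Myh4, and it alone reached into the range of HU Ctrl. Replicate 8, the other mouse high in Myh4, had 1.28 CPM of Myhas. That was close to the 1.04 CPM of replicate 7, which had 28.6 CPM of Myh4. In HU mKO it had 4.06, 11.1 and 23.7 CPM, against 0.905, 4.11 and 5.602 in AMB mKO, and rose 6.23-fold (log2 2.64 ± 0.58 SE, adjusted p = 0.00575). Within AMB mKO, Myhas was at 3.44 to 5.602 CPM in the 5 males and at 0.905 and 0.958 CPM in the 2 females. In the other groups the ranges of the sexes overlapped.

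Myhas and Myh4 varied together among HU mKO mice (Pearson r = 0.95, Spearman rho = 0.95, n = 8, exact permutation adjusted p = 0.0109 and 0.0114 over the 20 relations computed, 5 pairs of transcripts in 4 groups), and r was 0.95 without the 2 mice farthest from the median of Myh4. Among HU Ctrl mice r was 0.77 and rho 0.57 (n = 7, exact permutation adjusted p = 0.171 and 0.399), with r of 0.39 without the 2 farthest. AMB Ctrl mice fall into separate clusters of Myh4, so no pooled relation is given for them. In AMB mKO without replicate 2, r was 0.21 and rho 0.37 (n = 6, exact permutation adjusted p = 0.637 and 0.622), and r was 0.59 without the 2 farthest. These mice also lie apart in Myh4, at 19.7 and 151 CPM against 1934 to 2861 CPM, so no relation can be read from these values. In this group, replicate 4 had 5.45 CPM of Myhas with 19.7 CPM of Myh4, and replicate 1 had 0.958 CPM of Myhas with 151 CPM of Myh4. Myh1 and Myhas, which overlap, gave no relation that passed (Pearson r between -0.47 and 0.76 in the 4 groups, exact permutation adjusted p of 0.086 to 0.362).

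**Figure D4:**
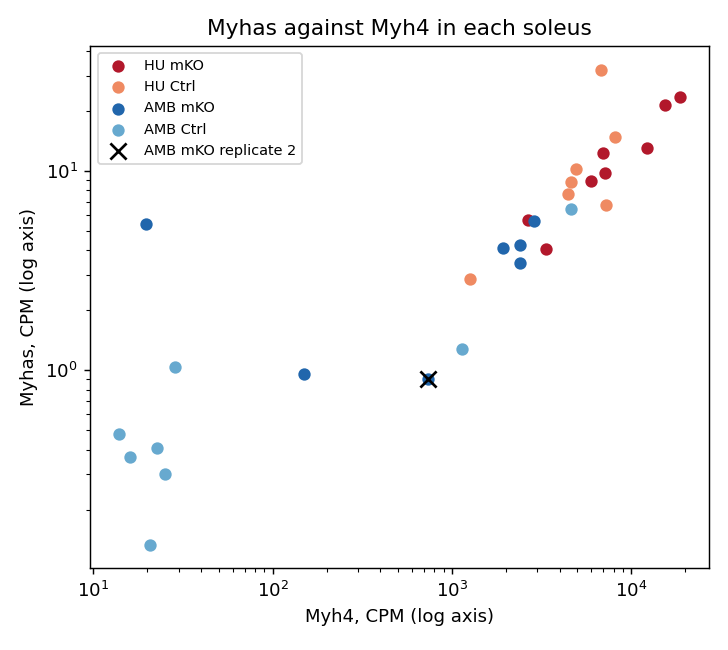
Normalised CPM of Myhas against Myh4 (both axes log) in each of the 30 mice, coloured by group, with AMB mKO replicate 2 marked by a cross. AMB mKO replicate 4 has 5.45 CPM of Myhas with 19.7 CPM of Myh4, while 6 AMB Ctrl mice are at 1.04 CPM of Myhas or less.

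The slow chain Myh7 was not called in either unloading comparison. It had 4310, 8535 and 12997 CPM in HU Ctrl, against 5741, 13530 and 18091 in AMB Ctrl (log2 -0.60 ± 0.49 SE, adjusted p = 0.466), and 4484, 6513 and 17888 CPM in HU mKO, against 116, 10316 and 16581 in AMB mKO (log2 -0.41 ± 0.52 SE, adjusted p = 0.645). Groups overlapped widely, and the 116 CPM in AMB mKO replicate 2 compares with 6891 CPM in the next lowest mouse of that group.

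Myh6 stood at 25.02 to 59.2 CPM in HU mKO, 18.2 to 44.1 in HU Ctrl, 0.271 to 71.1 in AMB mKO and 21.3 to 74.9 in AMB Ctrl, and was not called in either unloading comparison (log2 0.07 ± 0.47 SE in mKO mice, adjusted p = 0.937; -0.48 ± 0.45 in controls, adjusted p = 0.536). It followed Myh7 from mouse to mouse within 3 of the 4 groups. Pearson r was 0.96 in HU Ctrl (n = 7, exact permutation adjusted p = 0.0159), 0.99 in AMB mKO without replicate 2 (n = 6, exact permutation adjusted p = 0.0278) and 0.97 in AMB Ctrl (n = 8, exact permutation adjusted p = 0.00198), and was 0.96 to 0.97 in the ambulatory groups and 0.91 in HU Ctrl without the 2 farthest mice. By Spearman's rho the relation passed in AMB Ctrl (0.98, exact permutation adjusted p = 0.00794) and not in HU Ctrl (0.86, 0.119) or AMB mKO (0.94, 0.111). In HU mKO r was 0.67 (rho 0.45, n = 8, exact permutation adjusted p = 0.187 and 0.399) and -0.31 without the 2 farthest. Since 5.53% of the 150-base windows of Myh6 occur in another myosin, most often Myh7, and Myh7 is far more abundant, how many of the Myh6 counts are reads of Myh7 is not known.

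Myh7b was not called in either unloading comparison by edgeR, at 48.8 to 153.5 CPM in HU mKO and 32.8 to 145.9 in HU Ctrl, against 1.18 to 190.2 in AMB mKO and 99.4 to 212.7 in AMB Ctrl (log2 0.15 ± 0.47 SE in mKO mice, adjusted p = 0.869; -0.63 ± 0.46 in controls, adjusted p = 0.404). limma voom with library weights called a fall in controls (log2 -1.07, adjusted p = 0.0125). Its relation to Myh7 within groups did not pass (Pearson r between -0.33 and 0.64 in the 4 groups), nor did that of Myh7 with the row of the miRNA gene Mir208b (r between 0.06 and 0.68).

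Of the developmental chains, the embryonic Myh3 fell with unloading. It had 8.73, 15.4 and 22.5 CPM in HU Ctrl, against 35.6, 105 and 170.6 in AMB Ctrl, without overlap, a 6.70-fold fall (log2 -2.74 ± 0.50 SE, adjusted p = 0.000888). In HU mKO it had 10.8, 23.0 and 67.8 CPM, against 10.9, 141.8 and 238.1 in AMB mKO, a 4.92-fold fall (log2 -2.30 ± 0.53 SE, adjusted p = 0.00767), and this call was lost in a fit of those 2 groups alone (0.0967). The ranges of the mKO groups overlapped with or without AMB mKO replicate 2, the mouse at 10.9. The perinatal Myh8 stood at 4.33 to 24.4 CPM in HU mKO, 3.97 to 24.9 in HU Ctrl, 2.35 to 28.4 in AMB mKO and 11.1 to 95.1 in AMB Ctrl and was not called (log2 0.07 ± 0.49 SE in mKO mice, adjusted p = 0.947; -0.84 ± 0.49 in controls, adjusted p = 0.282).

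**Figure D5:**
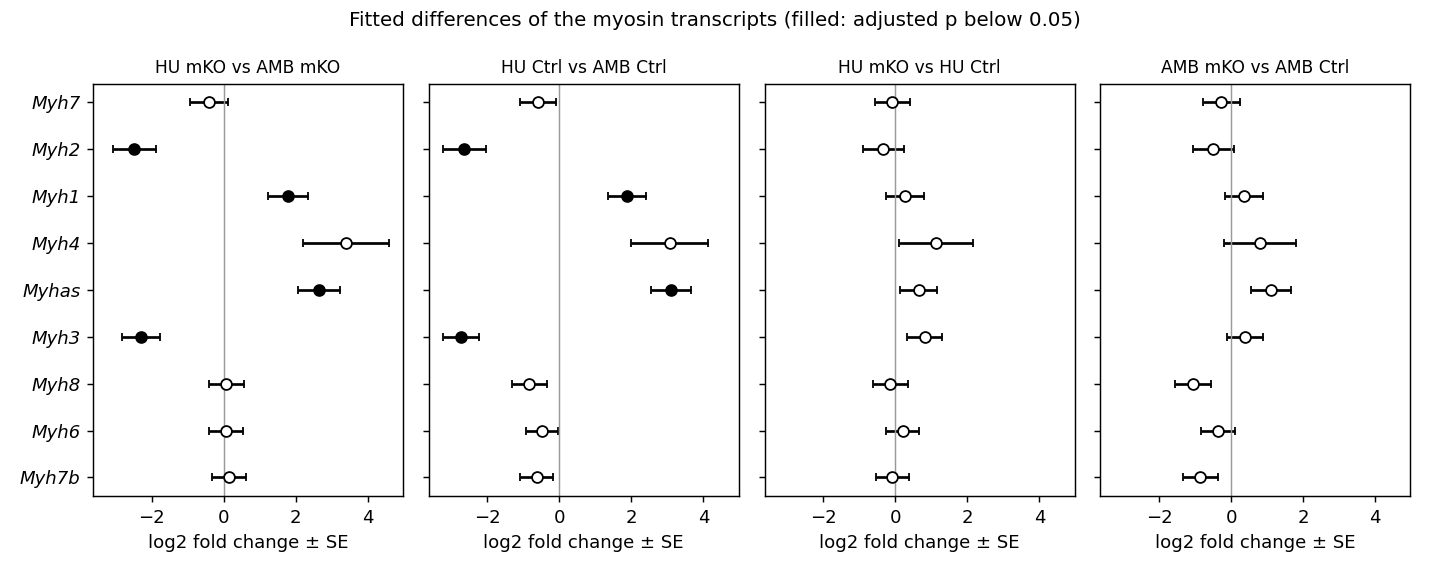
Fitted log2 fold changes with standard errors (x axis) of the 9 members (y axis) in 4 comparisons, filled where the adjusted p was below 0.05. Myh2 and Myh3 fell and Myh1 and Myhas rose in both unloading comparisons, and no member was called in either genotype comparison.

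The shares of the adult chains, which do not depend on the normalisation to library size, were compared by exact two-sided permutation tests over mice, adjusted over all 16. Mice were permuted without regard to sex, and permutation within sex passed the same comparisons. Within a mouse a larger share of any gene leaves less for the others, so these tests depend on each other. A fall in share need not be a fall in transcript level. In HU Ctrl against AMB Ctrl all 4 shares changed. Myh2 held 7.36 ± 5.32% in HU Ctrl and 37.8 ± 6.23% in AMB Ctrl (SD, n = 7 and 8), 30.5 percentage points less (exact permutation adjusted p = 0.00166). No HU Ctrl mouse was near that mean. Replicates 1 to 4, which include all c mice, had 9.95% to 12.5%, and replicates 5 to 7 had 1.22% to 2.43%. Myh1 held 49.5 ± 11.0% in HU Ctrl and 14.9 ± 6.61% in AMB Ctrl, 34.6 points more (adjusted p = 0.00166 by exact permutation). For both genes the ranges did not overlap. Myh4 held 15.9 ± 4.66% in HU Ctrl and 2.64 ± 5.83% in AMB Ctrl, 13.2 points more (exact permutation adjusted p = 0.00497). The share of Myh7 was 26.7 ± 8.46% in HU Ctrl and 43.5 ± 11.7% in AMB Ctrl, 16.8 points less (exact permutation adjusted p = 0.0249). Its CPM did not pass, and its share did not pass as a difference of medians (adjusted p = 0.0622). By title letter the Myh7 share averaged 15.7% in HU Ctrl against 43.1% in AMB Ctrl for a, 29.1% in HU Ctrl against 49.6% in AMB Ctrl for b, and 32.5% in HU Ctrl against 39.9% in AMB Ctrl for c.

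In mKO mice the shares of Myh2 and Myh1 changed under unloading. Myh2 held 4.19 ± 2.93% in HU mKO and 32.4 ± 6.43% in AMB mKO (n = 8 and 7, exact permutation adjusted p = 0.00166), and the ranges were apart even with AMB mKO replicate 2. Myh1 held 46.2 ± 14.5% in HU mKO and 23.7 ± 6.12% in AMB mKO, 22.5 points more (exact permutation adjusted p = 0.00895), which did not pass as a difference of medians (0.0622). Among c mice the Myh1 share was 22.8% to 37.2% in HU mKO against 28.7% and 32.2% in AMB mKO, an overlap that a and b mice did not show. Myh4 held 25.1 ± 10.6% in HU mKO and 11.2 ± 15.4% in AMB mKO, 13.8 ± 6.93 points (SE) more, which did not pass (exact permutation adjusted p = 0.112). AMB mKO replicate 2 alone had 45.0% Myh4, the highest of its group, so leaving it out widens the difference. Without it the difference was 19.5 points and passed (exact permutation adjusted p = 0.0107), which describes how far the result rests on that library. Myh7 held 23.9 ± 10.02% in HU mKO and 31.8 ± 12.6% in AMB mKO, 7.85 ± 5.92 points (SE) less, which did not pass (adjusted p = 0.224 by exact permutation). Without AMB mKO replicate 2 that difference was -12.0 ± 4.51 points (SE) and did not pass either (exact permutation adjusted p = 0.0586). Whether the change of a share differed between the genotypes was not tested.

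No member was called between mKO mice and controls in either housing condition. In AMB mKO against AMB Ctrl, edgeR called 3 of 16932 genes, 0.0177%, of which 1 was lower (0.00591%). Ranges were apart for 0 of 9 members and for 0.0354% of all genes. The unadjusted p was below 0.05 for 1291 genes, with Myh8 the only member among them (log2 -1.05 ± 0.50 SE, edgeR adjusted p = 0.645). DESeq2 called 9 genes, limma voom 3, and neither called a member. The median log2 fold change was -0.27 over the members and 0.02 over all genes. The adipocyte markers had higher fitted values in AMB mKO for 8 of 8 genes, at a median log2 of 2.22 with none called, the striated fibre markers lower ones for 10 of 10, at a median of -0.20, and the tenocyte markers lower ones for 8 of 8, at a median of -0.68, again with none called. These fits include AMB mKO replicate 2, whose adipocyte markers summed to 11539 CPM and whose striated fibre markers summed to 10069 CPM. Group medians were 1803 CPM in AMB mKO and 1621 in AMB Ctrl for adipocyte markers. For striated fibre markers they were 245394 in AMB mKO and 243092 in AMB Ctrl. The part of these markers in the values of the members was not tested. Myh7b had log2 -0.86 ± 0.48, Myhas 1.10 ± 0.56, Myh4 0.80 ± 1.01, Myh1 0.36 ± 0.53, Myh3 0.38 ± 0.50, Myh6 -0.36 ± 0.47, Myh7 -0.27 ± 0.51 and Myh2 -0.50 ± 0.57. In HU mKO against HU Ctrl, edgeR called 3 genes, 0.0177%, again 1 of them lower (0.00591%), ranges were apart for 0 of 9 members and 0.0295% of all genes, and 301 genes but no member had an unadjusted p below 0.05. DESeq2 and limma voom also called 3 genes each and no member. The median was 0.20 over the members and 0.01 over all genes, and 8 of 8 adipocyte markers had higher fitted values, at a median of 0.95. Adipocyte markers summed to 3332 and 3591 CPM in HU mKO replicates 2 and 3. Group medians of that sum were 1371 CPM in HU mKO and 1274 in HU Ctrl. Striated fibre markers were higher for 9 of 10 (median 0.16), tenocyte markers lower for 8 of 8 (-0.96) and macrophage markers lower for 6 of 6 (-0.38). None of these markers was called there, and their part was not tested. The largest fitted differences there were Myh4 at log2 1.14 ± 1.03, Myh3 at 0.82 ± 0.49 and Myhas at 0.65 ± 0.52, and the other 6 lay between -0.34 and 0.27.

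In the ambulatory comparison the estimate of Myh4 turned on 2 control mice. Myh4 was at 151 to 2861 CPM in 6 of 7 AMB mKO mice and at 19.7 CPM in replicate 4, against 13.8 to 28.6 CPM in 6 of 8 AMB Ctrl mice and 1147 and 4658 CPM in the others. In AMB mKO it averaged 1922 CPM in males (19.7 to 2861) and 443 CPM in females (151 to 736). In AMB Ctrl it averaged 1567 CPM in males (13.8 to 4658) and 246 CPM in females (15.9 to 1147). The fit holds a term for sex, but the part of sex in this pattern was not tested. Without AMB Ctrl replicates 1 and 8 the fitted Myh4 difference was log2 5.85 ± 0.83, but the 2 mice were chosen for their Myh4, so this is no test. With all mice, the Myh1 share was 23.7 ± 6.12% in AMB mKO and 14.9 ± 6.61% in AMB Ctrl (n = 7 and 8), which did not pass by free exact permutation (p = 0.0255, adjusted p = 0.0583) and passed by exact permutation within title letters (adjusted p = 0.0267). The difference did not pass by exact permutation within sex (adjusted p = 0.0583) or as a difference of medians (exact permutation adjusted p = 0.0922). Without AMB mKO replicate 2 it was 7.9 points and did not pass either (exact permutation adjusted p = 0.0888). The share of Myh7 was 31.8% in AMB mKO and 43.5% in AMB Ctrl (exact permutation adjusted p = 0.137), that of Myh2 32.4% in AMB mKO and 37.8% in AMB Ctrl (0.186), and that of Myh4 11.2% in AMB mKO and 2.64% in AMB Ctrl (0.207), and none of these passed. Without AMB mKO replicate 2 these shares in AMB mKO were 35.9%, 34.8% and 5.58%, and the differences shrank to -7.61 points for Myh7 (exact permutation adjusted p = 0.245), -3.05 for Myh2 (0.337) and 2.95 for Myh4 (0.382). In unloaded mice the Myh4 share was 25.1 ± 10.6% in HU mKO and 15.9 ± 4.66% in HU Ctrl (n = 8 and 7), 9.21 ± 4.14 points (SE) more, which did not pass (exact permutation p = 0.0559, adjusted p = 0.112). The other 3 differed by 2.79 to 3.28 points, with adjusted p of 0.207 to 0.632.

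The interaction, which asks whether unloading acted differently in mKO mice than in controls, was called for no member and for 0 of 16932 genes (0.0%) by edgeR, by DESeq2 and by limma voom, and 410 genes but no member had an unadjusted p below 0.05. The median was 0.34 over the members and -0.02 over all genes. Fitted interactions ran from log2 -0.46 ± 0.78 for Myhas to 0.91 ± 0.71 for Myh8. For the 4 members that unloading changed in both genotypes they were -0.10 ± 0.76 (Myh1), 0.16 ± 0.84 (Myh2), 0.45 ± 0.74 (Myh3) and -0.46 ± 0.78 (Myhas). Standard errors of this size leave room for differences of more than 2-fold in either direction. For Myh4 the estimate was 0.34 ± 1.45 and turned to -3.12 with limma voom and to -2.28 without AMB Ctrl replicate 1, so its direction was not settled.

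Spread between mice of a group differed between members. Over all mice of a group the coefficient of variation of Myh1 was 73.5% in HU mKO, 51.3% in HU Ctrl, 51.7% in AMB mKO (30.1% without replicate 2) and 53.2% in AMB Ctrl. For Myh4 it was 64.2% in HU mKO, 42.9% in HU Ctrl, 78.2% in AMB mKO and 219.9% in AMB Ctrl. For Myh2 it was 85.6% in HU mKO, 90.6% in HU Ctrl, 47.7% in AMB mKO (19.99% without replicate 2) and 38.7% in AMB Ctrl. Among the lowest values were Myh6 in HU mKO at 29.5%, Myh3 in HU Ctrl at 30.9% and Myh7b in AMB Ctrl at 23.5%.

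The genes that varied most like each adult chain from mouse to mouse were named by Spearman's rho of log2 CPM over 30 mice after group and sex means were removed. Libraries share depth and muscle content, so these are descriptions. For Myh7 they were Tnnt1 (rho 0.97), the slow troponin T, Atp2a2 (0.96), the slow calcium pump, and Homer2 (0.95). For Myh2 they were Bdh1 (0.78), a ketone body enzyme, Adamtsl4 (0.74) and Tecta (0.70). For Myh1 they were Tor1aip1 (0.95), Myom2 (0.94), an M-band protein of fast fibres, and Map2k3 (0.94). For Myh4 they were Ssr3 (0.77), Zc3h14 (0.73) and Ldhal6b (0.72). Without AMB mKO replicate 2 the value of Homer2 was 0.85, and Homer2, Map2k3 and Ldhal6b were no longer among the 3 highest.

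Of 30 regulators of fibre type, 4 rose and 4 fell in HU Ctrl against AMB Ctrl (median log2 0.14, against 0.03 over all genes), and 5 rose and 2 fell in HU mKO against AMB mKO (median 0.26, against -0.04). Of all genes tested, 5.37% rose and 5.74% fell in controls, and 5.3% rose and 4.75% fell in mKO mice. Eya4, a cofactor of transcription factors that drive fast genes, rose (log2 1.61 ± 0.20 in mKO mice, adjusted p = 3.48e-05; 1.55 ± 0.19 in controls, adjusted p = 2.39e-05). Maf, a large Maf factor known in mice for the 2B myosin, rose too (0.87 ± 0.19, adjusted p = 0.00518 in mKO mice; 1.28 ± 0.19, adjusted p = 9.01e-05 in controls), as did its relative Mafa (2.00 ± 0.54, adjusted p = 0.0182 in mKO mice; 2.21 ± 0.49, adjusted p = 0.00431 in controls). Hdac4, a repressor of MEF2, rose (1.45 ± 0.21, adjusted p = 0.000219 in mKO mice; 1.07 ± 0.20, adjusted p = 0.000924 in controls). Ppard rose in mKO mice (0.48 ± 0.16, edgeR adjusted p = 0.0479) and measured 0.28 ± 0.15 in controls without passing. Rcan1, a target and inhibitor of calcineurin, the phosphatase of the slow programme, fell (-1.85 ± 0.32, adjusted p = 0.000713 in mKO mice; -2.57 ± 0.32, adjusted p = 2.39e-05 in controls). Vgll2, a cofactor of slow genes, fell as well (-1.62 ± 0.40, adjusted p = 0.012 in mKO mice; -1.97 ± 0.41, adjusted p = 0.00236 in controls). Ppargc1a, a coactivator of mitochondrial genes, measured -1.29 ± 0.47 in mKO mice without passing and fell in controls (-1.62 ± 0.46, adjusted p = 0.0232). Esrrg, a nuclear receptor of slow fibres, measured -0.81 ± 0.39 in mKO mice without passing and fell in controls (-1.30 ± 0.39, adjusted p = 0.0317). The differences between genotypes for Ppard, Ppargc1a and Esrrg were not called, as no gene had a called interaction.

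Partners of the thick filament were mostly not called. Of 15 tested, Mybph, a myosin binding protein of fast muscle, rose in HU Ctrl against AMB Ctrl (log2 2.46 ± 0.73, adjusted p = 0.0289; median of the list -0.15, against 0.03 over all genes), and none was called in HU mKO against AMB mKO (median 0.03, against -0.04). Of 8 genes of myosin folding and turnover, none was called in any comparison, with Hsp90aa1, a chaperone of myosin, at -0.36 ± 0.16 in mKO mice and -0.35 ± 0.16 in controls under unloading. Among 6 other myosin heavy chains, the nonmuscle Myh10 fell in both genotypes (log2 -0.92 ± 0.25, adjusted p = 0.0178 in mKO mice; -1.41 ± 0.25, adjusted p = 0.000624 in controls), and the smooth muscle chain Myh11 fell in controls (-0.52 ± 0.15, adjusted p = 0.0267), where 3 of 6 smooth muscle markers, Myh11 among them, fell as well. Of 11 tested genes of immature or denervated fibres, Gadd45a, which denervation induces, rose in both genotypes (0.88 ± 0.29, adjusted p = 0.0476 in mKO mice; 0.99 ± 0.28, adjusted p = 0.0202 in controls), and none fell. In neither genotype comparison was any gene of these lists called.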

How the data were processed

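RNA of the soleus of 30 mice was sequenced with a stranded total RNA kit on an Illumina NovaSeq, per the labels' protocols. The authors deposited raw read counts per Ensembl gene, not normalised. The submitters' processing notes name cutadapt 1.16, STAR 2.7.9a, featureCounts 1.6.3, DESeq2 1.34.0 and the builds GRCm39 and mm39. Neither they nor the labels give the annotation release, the strand setting or the handling of reads with several matches. Protocol texts that speak of people and of cultured cells do not match the samples. Only the library kit was taken from them, so the kit is uncertain too.

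Of 56980 genes, 52073 had a symbol in the reference tables. Genes were filtered with filterByExpr, which left 16932, and counts were scaled by TMM in edgeR 4.0.16 (R 4.3.3). The quasi-likelihood model with robust dispersion had a term for each group and for sex over all 30 libraries, and p-values were adjusted by Benjamini-Hochberg over all genes tested, with calls below 0.05. DESeq2 1.42.0 and limma 3.58.1 were alternatives. A share is the count of a gene over the sum of the 8 myosin heavy chain genes, without Myhas. Shares and relations were tested by exact permutation in scipy 1.17.1. Counts limit the precision of Myhas in AMB Ctrl, where 5 of 8 libraries had 3 to 7 reads. The members, gene lists, mice to leave out and tests were chosen with earlier results of these data known. All 9 members, up to 4 genes of each list with the smallest p, and the 3 genes most like each adult chain are named. Mafa, Ppard, Vgll2, Ppargc1a, Esrrg, Tnnt2 and Nppa are named beyond this rule, after their values were seen. Sequences are from RefSeq on GRCm38.p6, not the authors' build, and coding lengths, identities and shared windows from GENCODE transcripts.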

Additional observations from a re-analysis of the deposited data

Results flagged for a closer look

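Of 52 sets of values of 1 member in 1 group, 11 held a mouse far from the others of its group. The rule gives about 1 in 20 by chance for independent, normally distributed values. These values are skewed and the sets share mice and genes, so that rate is no measure here. AMB mKO replicate 2 was lowest in Myh2, with 299.3 CPM and a share of 18.31% of myosin counts, and highest in the share of Myh4, with 45.02%. AMB Ctrl replicate 1 was highest in Myh4, with 4658 CPM and a share of 16.65%, and in Myhas, with 6.421 CPM. HU mKO replicate 7 was highest in Myh2 (4152 CPM) and in Myh7 (17888 CPM). HU Ctrl replicate 4 was highest in Myh2 (6195 CPM) and in Myhas (32.29 CPM). AMB Ctrl replicate 6 was highest in Myh8, with 95.09 CPM.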

How the results depend on the processing

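Of 104 alternative values of the 8 called fold changes, 99 kept their call, 5 lost it and 0 changed direction. In a fit of the compared groups alone, 1 member was called in HU mKO against AMB mKO, Myhas, with Myh1 (adjusted p = 0.148), Myh2 (0.0509) and Myh3 (0.0967) not called; Myh1 there was also lost with no filter (0.0778) and without AMB Ctrl replicates 1 and 8 (0.0567). Without those 2 mice, which were chosen for their Myh4, 1 member, Myh4, was called in AMB mKO against AMB Ctrl, with log2 5.85, and 6.00 when AMB mKO replicate 2 was also left out, and the shares there differed by -13.0 (Myh7), -8.05 (Myh2), 10.1 (Myh1) and 11.1 (Myh4) points. The Myh1 share difference of 8.74 points in AMB mKO against AMB Ctrl passed within title letters. It did not pass within sex, as a difference of medians or without AMB mKO replicate 2. As differences of medians, Myh7 in HU Ctrl against AMB Ctrl (-16.5 points) and Myh1 in HU mKO against AMB mKO (23.8) did not pass. Without AMB mKO replicate 2, the highest of its group in the Myh4 share, that share in HU mKO against AMB mKO differed by 19.5 points and passed. Of all genes, 1882 were called in HU Ctrl against AMB Ctrl, and 4287 with limma voom, 1225 with no filter and 3098 in a fit of those groups. In HU mKO against AMB mKO 1702 were called, and 987 with no filter, 608 in a fit of those groups and 2591 with the title letter. In AMB mKO against AMB Ctrl 3 were called, and 9 with DESeq2, 1 in a fit of those groups and 5 without AMB mKO replicate 2 and AMB Ctrl replicates 1 and 8.

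All changes of direction were of values not called. In AMB mKO against AMB Ctrl, Myh7 was 0.01 with limma voom, between -0.41 and 0.02 with AMB Ctrl replicate 1 or AMB mKO replicate 2 left out, and 0.03 without AMB mKO replicate 2 and HU mKO replicates 2 and 3, 3 of the 4 libraries highest in adipocyte markers, and Myh1 -0.17 with the title letter. In HU mKO against HU Ctrl, Myh2 was 0.21 and Myh7b 0.20 with limma voom, and Myh7 0.01 and Myh8 0.06 without the adipocyte-rich libraries. In HU mKO against AMB mKO, Myh7b was -0.05 with limma voom. With AMB mKO replicate 2 or AMB Ctrl replicate 1 left out, Myh6 was -0.21 and 0.11, Myh7b -0.12 and 0.18 and Myh8 -0.17 and 0.09 there. Without AMB mKO replicate 2 and AMB Ctrl replicates 1 and 8 they were -0.17, -0.09 and -0.16; without the adipocyte-rich libraries Myh6 was -0.17 and Myh7b -0.25. The interaction of Myh4 was -3.12 with limma voom, -0.25 without sex, -0.02 with the title letter, 0.37 without AMB mKO replicate 2, -2.28 without AMB Ctrl replicate 1, -4.94 without AMB Ctrl replicates 1 and 8 and -5.11 also without AMB mKO replicate 2. That of Myh2 was -0.35 without sex, -0.19 without AMB mKO replicate 2, 0.30 without AMB Ctrl replicate 1, -0.03 without AMB mKO replicate 2 and AMB Ctrl replicates 1 and 8, and -0.06 without the adipocyte-rich libraries. That of Myh7 was -0.04 with limma voom, -0.15 without AMB mKO replicate 2, 0.35 without AMB Ctrl replicate 1, -0.03 without AMB mKO replicate 2 and AMB Ctrl replicates 1 and 8 and -0.02 without the adipocyte-rich libraries, that of Myh3 -0.21 with limma voom and -0.16 without the adipocyte-rich libraries, and that of Myh1 0.32 with the title letter. The causes were not tested. No paired analysis was possible because replicate numbers follow the order of the samples and pair no mice.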
